A study of Rattus norvegicus with 36 samples.

Results

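A list of 30 genes of sterol synthesis, its control, and the lysosomal release, storage and export of cholesterol was followed in rat alveolar macrophages loaded with particles. The genes were chosen by symbol from the 23487 entries of the gene count table, and all 30 passed the filter on low counts, which left 14498 tested genes. They were ordered as 7 genes of the mevalonate steps and 11 of the making of squalene and its steps to cholesterol. A further 4 were grouped under SREBP2 control, among them the sterol carrier gene Stard4. LXR signalling and export had 5 genes, and lysosomal release and storage 3.

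RNA was sequenced from primary alveolar macrophages of male F344/HanZtmRj rats. Culture lasted 5 days in DMEM medium containing 10% fetal bovine serum, and contact with the particles 4 days. Each particle had 3 groups, named overload, non-overload and control, for Printex90, a carbon black, and for G1-1, G3-1 and Bayertitan, which are titanium dioxides. Every group had 3 libraries, 36 in all, so each loading was set against the control cultures of its own particle. Which dose each name stands for is not given in the sources used here. No genotype or drug differed between the groups, and all of them shared the serum, a source of lipoprotein cholesterol.

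Cells make cholesterol from acetyl-CoA by way of mevalonate, isoprenoids, squalene and lanosterol. When membranes of the endoplasmic reticulum are poor in cholesterol, SCAP carries SREBP2 to the Golgi, where it is cleaved and then switches on the synthesis genes; INSIG proteins hold it back when sterols are plentiful. In the reverse direction, oxysterols activate the nuclear receptors LXR alpha and LXR beta, which raise the exporters ABCA1 and ABCG1. Alveolar macrophages take up surfactant lipid and cholesterol all the time, release the cholesterol in lysosomes through NPC2 and NPC1, and export it or store it as ester.

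Column totals ran from 22274300 to 37131500 estimated counts. The listed genes together held 0.356 to 0.457% of a library, and their counts in single libraries ran from 130 for Hsd17b7 to 41674 for Abca1. Levels are given in CPM, counts scaled to a common library size. The median spread within a group, as a coefficient of variation over 3 libraries, was 6.62% for the listed genes and 8.62% for all tested genes. Macrophage markers were present in every library, with Cd68 at 508 to 835 CPM and Itgax at 572 to 1132 CPM, except Marco, a scavenger receptor, which stayed at or below 0.353 CPM and was at 0 in 5 libraries. Epithelial markers (6 genes) summed to 721 to 1545 CPM in overload, 682 to 1695 CPM in non-overload and 967 to 1944 CPM in control libraries. Fibroblast markers were uneven: Col3a1 exceeded 1 CPM in 15 of the 36 libraries, 4 of them overload libraries. The labels call the libraries biological replicates and do not say whether they came from separate animals, so p-values measure the spread between these libraries.

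Averaged over the 4 particles, overload raised 8 of the 30 genes and lowered 1. The rises were small, 1.09-fold for Lss up to 1.15-fold for Npc1. Sqle, Lss, Tm7sf2 and Sc5d of the steps from squalene to cholesterol rose, and so did the SREBP2 brake Insig1. All 3 genes of lysosomal release and storage (Npc1, Npc2, Soat1) rose too. Nsdhl, another gene of the steps from squalene to cholesterol, was 0.844-fold. None of the 7 mevalonate genes and none of the 5 LXR and export genes passed the test. Of all tested genes 24.0% passed in this comparison (edgeR quasi-likelihood test, Benjamini-Hochberg adjusted p under 0.05), so the 30% of the listed genes that did is close to the background. By direction, 26.7% of the listed genes were called higher, against 11.9% of all genes, and 3.33% lower, against 12.1%. The median log2 fold change was 0.06 over the 30 genes, with 20 of them above 0, and 0.0013 over all genes. With mean non-overload it was 0.06 too, with 22 of 30 above 0, against 0.01 over all genes. The mean overload median came to 0.03 with the epithelial level described further on as a covariate and to 0.04 without Printex90 overload replicate 2, and that of mean non-overload to 0.03 with the covariate and to 0.02 without the libraries with Col3a1 above 1 CPM. In bulk RNA, a change in the number of cells of a type and a change in RNA per cell cannot be told apart.

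**Figure D1:**
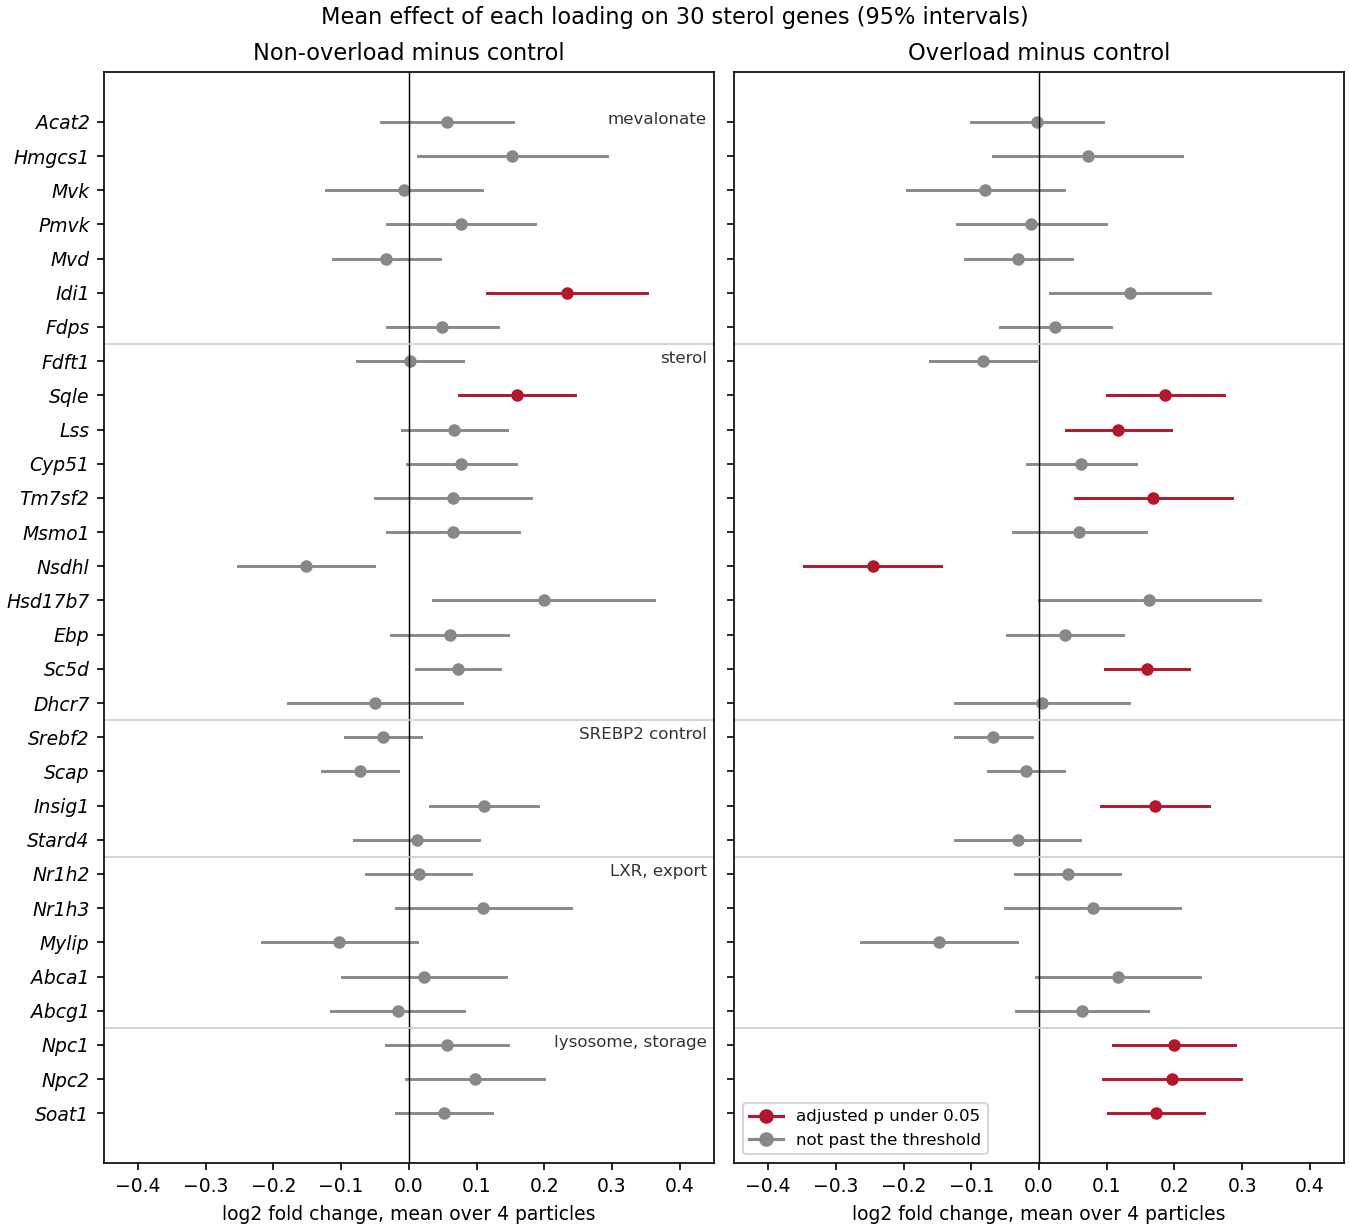
Log2 fold change of each of the 30 genes (points, with 95% intervals) against the particles' own controls, averaged over the 4 particles, for non-overload (left) and overload (right); lines separate the roles and red marks adjusted p under 0.05. Under overload 9 genes are red, with Nsdhl alone on the negative side; under non-overload Idi1 and Sqle are red.

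Sc5d, the lathosterol desaturase of the last steps, had the smallest adjusted p. Its lowest, median and highest levels were 67.6, 71.6 and 82.2 CPM in the 12 overload libraries, against 59.9, 62.9 and 71.6 CPM in the 12 control libraries. The ranges overlapped, while the highest control library stood at the overload median. Sc5d rose by 0.16 on the log2 scale (SE 0.030, adjusted p = 0.000523), and its particle estimates were 0.29 for Printex90, 0.13 for G1-1, 0.09 for G3-1 and 0.13 for Bayertitan.

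Sqle encodes squalene epoxidase, a rate-limiting oxygenase. Its lowest, median and highest levels were 50.7, 54.2 and 70.3 CPM in overload libraries and 42.0, 50.1 and 59.2 CPM in control libraries. The mean rise was 0.19 (SE 0.042, adjusted p = 0.00233). Lss, the lanosterol synthase that closes the sterol ring, rose by 0.12 (SE 0.038, adjusted p = 0.0245). Tm7sf2, a sterol C14 reductase, rose by 0.17 (SE 0.056, adjusted p = 0.0293). Lss and Tm7sf2 were the weakest of the 9 calls: leaving out 1 library at a time ended the call of Lss in 3 of 24 fits (Bayertitan overload 2, G3-1 overload 1 or Printex90 overload 2), at 0.10 to 0.11. It ended that of Tm7sf2 in 7 of 24 (Bayertitan overload 1, G1-1 overload 3, G3-1 control 2, G3-1 overload 1 or 3, Printex90 control 1 or overload 2), at 0.15 to 0.16.

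Nsdhl, which takes part in removing the C4 methyl groups of sterol intermediates, went the other way. In Printex90 cultures it stood at 42.7, 34.4 and 37.7 CPM with overload and at 52.9, 47.9 and 40.2 CPM in controls. With G1-1 it stood at 39.0, 37.0 and 34.5 CPM with overload and at 40.6, 40.6 and 45.9 CPM in controls. With G3-1 the overload libraries had 35.2, 34.2 and 33.0 CPM and the controls 39.6, 41.9 and 36.3 CPM. With Bayertitan they had 33.4, 31.9 and 40.7 CPM, against 43.0, 42.6 and 43.5 CPM in controls. Every overload library lay below every control of its particle for G1-1, G3-1 and Bayertitan, and with Printex90 the groups overlapped through 1 overload library. The mean effect fell by 0.25 on the log2 scale (SE 0.049, adjusted p = 0.000861), with particle estimates of -0.30 for Printex90, -0.20 for G1-1, -0.20 for G3-1 and -0.28 for Bayertitan, none of which passed alone. The neighbouring enzymes of C4 demethylation, Msmo1 and Hsd17b7, did not pass, at 0.06 (adjusted p = 0.401) and 0.16 (adjusted p = 0.142).

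Insig1, the anchor that retains SCAP and SREBP2 in the endoplasmic reticulum and is itself an SREBP target, reached 100.3, 118 and 130 CPM as lowest, median and highest level in overload libraries, against 91.5, 102 and 114 CPM in control libraries. It rose by 0.17 (SE 0.039, adjusted p = 0.00251), with estimates between 0.12 for G3-1 and 0.27 for G1-1. The other genes of SREBP2 control did not pass: Srebf2 itself was at -0.07 (adjusted p = 0.0748), Scap at -0.02 and Stard4, a sterol carrier, at -0.03.

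The lysosomal and storage genes were the one role in which every listed gene passed. Npc1, the membrane protein that takes cholesterol out of lysosomes, had a lowest, median and highest level of 167, 193 and 244 CPM in overload libraries, against 149, 172 and 191 CPM in control libraries. Npc2, its soluble partner in the lysosome, had 855, 1031 and 1220 CPM in overload libraries and 663, 919 and 1084 CPM in control libraries. Soat1, which esterifies cholesterol for storage in droplets, had 351, 409 and 478 CPM in overload libraries and 313, 364 and 393 CPM in control libraries. For all 3 genes the ranges overlapped and the overload median lay above the control median. The mean rises were 0.20 for Npc1 (SE 0.044, adjusted p = 0.00188), 0.20 for Npc2 (SE 0.050, adjusted p = 0.00542) and 0.17 for Soat1 (SE 0.034, adjusted p = 0.000852). Their estimates were above 0 with each of the 4 particles at both loadings.

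With mean overload 2 of 6 epithelial markers passed the test, both lower, where 24.0% of all genes passed. The median over the 6 was -0.38 on the log2 scale. With overload of single particles 0 of the 6 passed. All 6 estimates were below 0 with Printex90, G3-1 and Bayertitan, and all 6 above 0 with G1-1. Their mean log2 difference was -0.57 for Printex90, 0.27 for G1-1, -0.56 for G3-1 and -0.76 for Bayertitan. Of 7 macrophage markers tested, 2 rose with Printex90 overload (median 0.25), where 7.99% of all genes passed. With G1-1 3 fell (median -0.17), where 5.01% of all genes passed. None passed with G3-1 (median 0.01), where 0.117% of all genes did. With Bayertitan 3 rose (median 0.29), where 9.84% of all genes passed. The part of these markers in the sterol values was not tested beyond the fit with the epithelial level, which follows. With the epithelial level as a covariate, 6 of the 9 calls stayed (Sc5d, Sqle, Nsdhl, Insig1, Npc1, Soat1), while Lss, Tm7sf2 and Npc2 did not pass, and the fall of Nsdhl came to -0.15 (adjusted p = 0.0117). Of 5 fibroblast markers 1 passed with mean overload, higher, where 24.0% of all genes passed, and the median of the 5 was 0.54. Without the 15 libraries with Col3a1 above 1 CPM, 5 calls stayed: Insig1, Npc1, Sc5d, Soat1 and Sqle. Nsdhl was then at -0.19 (adjusted p = 0.0952).

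The promoters of Sc5d and Nsdhl, whose adjusted p was the smallest for a rise and for a fall among the synthesis genes, are shown with that of Insig1, which was added after its values were seen. Each is the 250 bases before the gene start in RefSeq's GRCr8 tables, read 5′ to 3′ along the gene, and capitals mark CCAAT boxes (CCAAT or, on the other strand, ATTGG; the letters bound by NF-Y, a partner of SREBP) and E-boxes (CACGTG).
Sc5d, GRCr8 chr8:51538278-51538527, minus strand: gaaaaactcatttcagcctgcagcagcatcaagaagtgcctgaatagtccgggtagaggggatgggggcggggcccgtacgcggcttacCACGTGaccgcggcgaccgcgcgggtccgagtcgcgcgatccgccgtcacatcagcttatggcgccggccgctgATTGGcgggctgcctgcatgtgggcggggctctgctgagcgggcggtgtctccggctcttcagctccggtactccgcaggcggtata
Nsdhl, GRCr8 chrX:155817110-155817359, plus strand: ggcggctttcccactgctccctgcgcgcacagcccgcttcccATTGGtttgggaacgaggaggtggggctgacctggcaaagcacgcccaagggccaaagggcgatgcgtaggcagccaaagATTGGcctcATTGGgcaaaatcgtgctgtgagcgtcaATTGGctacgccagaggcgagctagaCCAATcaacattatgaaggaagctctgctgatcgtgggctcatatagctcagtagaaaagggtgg
Insig1, GRCr8 chr4:8057770-8058019, minus strand: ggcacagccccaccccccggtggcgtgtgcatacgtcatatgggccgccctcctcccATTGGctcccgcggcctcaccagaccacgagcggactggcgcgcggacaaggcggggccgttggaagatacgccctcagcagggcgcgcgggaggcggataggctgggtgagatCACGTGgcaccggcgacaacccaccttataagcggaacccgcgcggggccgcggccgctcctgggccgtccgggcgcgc
Nsdhl held 5 CCAAT boxes and no E-box in this window, and Sc5d and Insig1 held 1 of each. Of the 30 genes, 25 had an entry in the table, and Pmvk, Fdft1, Sqle, Stard4 and Abcg1 had none. A CCAAT box on either strand was present in 17 of 25 (68.0%), against 34.0% of all 33465 promoters of that length. That background was every distinct entry, not limited to tested genes or to 1 entry per gene, while each listed gene had 1 entry. The shares of all promoters therefore come from an unlike set. The E-box was present in 4 of 25 (16.0%; Sc5d, Scap, Insig1 and Abca1), against 5.59% of all. The sterol element letters TCACNCCAC were found in none of the 25 and in 0.974% of all promoters, and the LXR repeat DR4, 2 copies of AGGTCA with 4 free bases between them, in none of the 25 and in 0.00299% of all. TCACNCCAC occurred in 326 of the 33465 promoters and the DR4 letters in 1. With strings this rare, 0 of 25 cannot show whether these genes hold sites with other letters. None of the 4 motifs contains another, and a match describes letters only. Nsdhl, the gene that fell, held more CCAAT boxes than both genes shown that rose, but Mvk, which was not called, also held 5. Npc2, which rose, held 3. A link between the number of boxes and the direction of change was not tested.

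**Figure D2:**
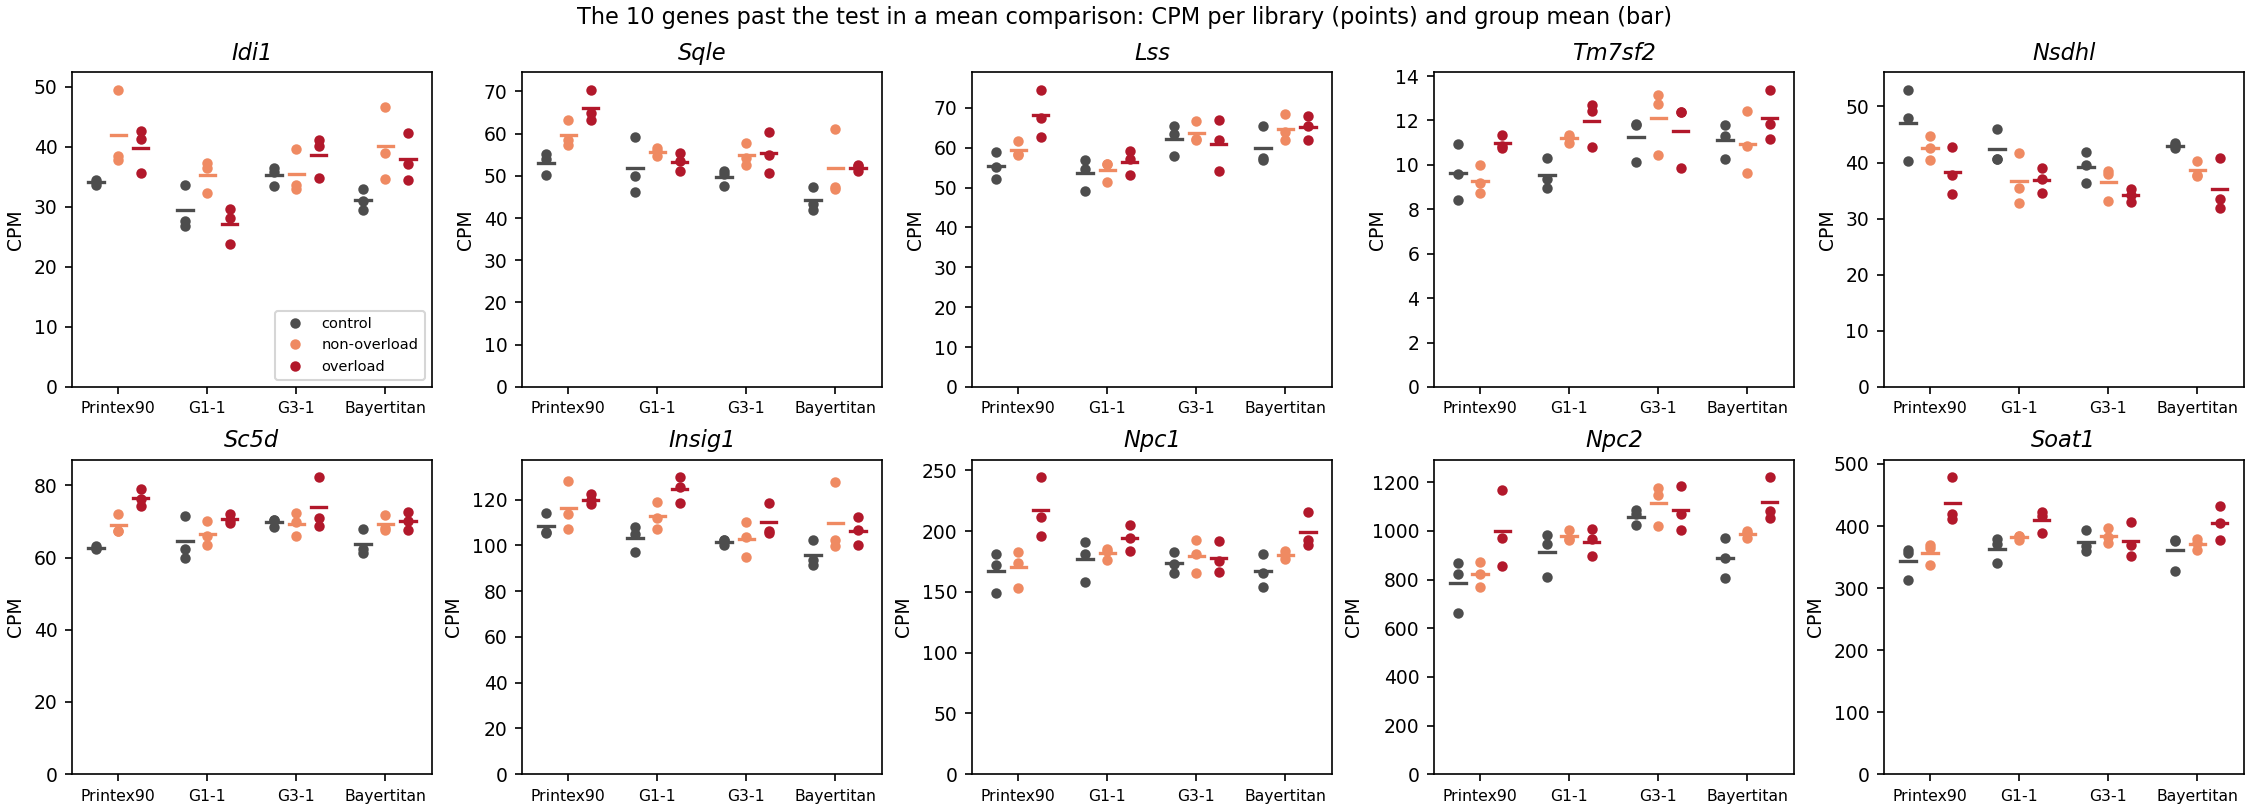
CPM of the 10 genes past the test in a mean comparison, by particle, with control, non-overload and overload libraries from left to right (points) and the group mean (bars); each axis starts at 0. Soat1, Npc1 and Sc5d have their highest group mean with Printex90 overload, and Nsdhl is lower under overload than in controls for all 4 particles.

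With Printex90 overload, 6 genes rose and none fell. These were Soat1, Sc5d, Npc1, Lss, Sqle and Npc2, at 20% of the list, where 7.99% of all tested genes passed, 5.15% higher and 2.84% lower. The median over the 30 genes was 0.17, against -0.01 over all genes, and 25 of 30 estimates were above 0. Libraries of both groups did not overlap for 12 genes, all with overload above control; this order held for 12.8% of all genes, and the opposite order, seen in none of the 30, for 12.6%.

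Soat1 stood at 411, 478 and 420.1 CPM in Printex90 overload libraries, against 313, 357 and 361 CPM in their controls. The lowest overload library was above the highest control. The log2 fold change was 0.34 (SE 0.069, adjusted p = 0.00315). Sc5d stood at 74.4, 76.2 and 79.1 CPM with overload and at 62.4, 63.2 and 62.6 CPM in controls. Both groups were tight and apart, and the rise was 0.29 (SE 0.061, adjusted p = 0.00461). Npc1 stood at 196, 244 and 212 CPM with overload and at 149, 172 and 181 CPM in controls, with a rise of 0.38 (SE 0.088, adjusted p = 0.00961). Lss stood at 62.8, 74.5 and 67.5 CPM with overload and at 52.2, 59.0 and 55.3 CPM in controls, with a rise of 0.30 (SE 0.076, adjusted p = 0.0163). For Npc1 and Lss too the groups were apart. Overload replicate 2 was the highest library of Npc1, Lss, Soat1, Sqle and Npc2, but not of Sc5d. Its epithelial markers summed to 797 CPM, against 1545 and 1260 CPM in overload replicates 1 and 3. Macrophage markers summed to 19500 CPM in it, against 14880 and 16390 CPM. The part of these markers in the values was not tested beyond the fits described below.

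Sqle rose by 0.32 (adjusted p = 0.0212) without overlap, and Npc2 by 0.35 (adjusted p = 0.0311) with overlap, since its lowest overload library had 855 CPM and its highest control 867 CPM. Several mevalonate genes had estimates of like size that did not pass: Acat2, the cytosolic thiolase that starts the route, was at 0.23 (adjusted p = 0.124), Idi1 at 0.23 (adjusted p = 0.218) and Fdps, which makes farnesyl diphosphate, at 0.20 (adjusted p = 0.124). The exporters Abca1 and Abcg1 were at 0.23 each and did not pass either. Without overload replicate 2 only Sc5d passed, and without control replicate 1 only Soat1 and Sc5d did. Without the libraries with Col3a1, which takes away 2 of the 3 Printex90 controls, none passed, and the 6 estimates lay between 0.21 and 0.31. With epithelial markers as a covariate Soat1, Sc5d and Npc1 stayed; when Printex90 libraries alone were fitted, Sc5d did.

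**Figure D3:**
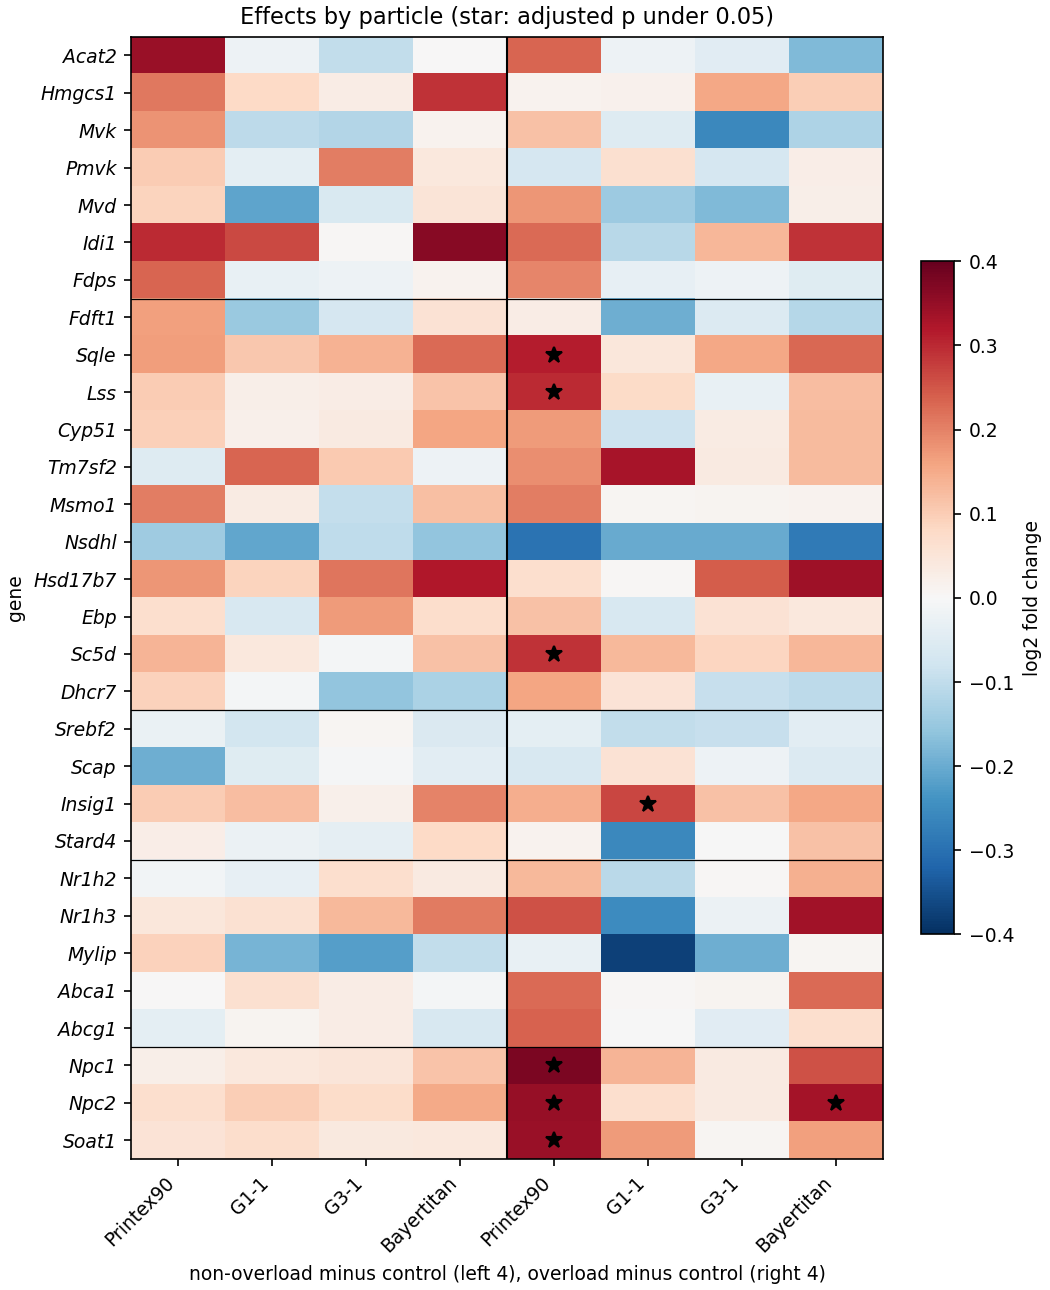
Log2 fold change of each gene against its particle's controls (colour; red higher, blue lower), with non-overload in the left 4 columns and overload in the right 4, and stars where adjusted p was under 0.05. Printex90 overload holds 6 of the 8 stars; Nsdhl is blue in all 8 columns and Npc1, Npc2 and Soat1 are red or near 0 in all 8.

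With G1-1 overload, 1 gene passed, Insig1, at 3.33% of the list and 5.01% of all tested genes. Insig1 stood at 130, 118 and 125 CPM with G1-1 overload and at 108, 105 and 97.0 CPM in controls. The groups did not overlap, and the rise was 0.27 (SE 0.078, adjusted p = 0.0423). Leaving out any 1 library other than overload replicate 2 ended this call, with estimates from 0.24 to 0.30. No synthesis gene was called: Sqle was at 0.04, Lss at 0.08 and Fdft1, the squalene synthase, at -0.20 (adjusted p = 0.156). The median over the 30 genes was 0.00060 and 15 of 30 estimates were above 0. In this comparison 3 genes lay wholly above the controls (11.0% of all genes did) and 4 wholly below (13.2% of all), so both counts of the list are near the background.

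Bayertitan overload also gave 1 call, Npc2, where 9.84% of all genes passed. The median over the 30 genes was 0.11, against 0.01 over all genes, and 22 of 30 estimates were above 0. With the epithelial covariate that median was 0.0023, with 15 of 30 above 0, and without Bayertitan control replicate 2 it was 0.07. Npc2 stood at 1082, 1220 and 1054 CPM with Bayertitan overload and at 890.0, 971 and 805 CPM in controls. The lowest overload library exceeded the highest control, and the rise was 0.33 (SE 0.099, adjusted p = 0.0384). The call was lost without control replicate 1 or 3 or overload replicate 1 or 2, with the epithelial covariate (0.18, adjusted p = 0.427) and without the libraries with Col3a1 (0.29, adjusted p = 0.295). Npc2 is also the 1 listed gene that differed among the 4 control groups (adjusted p = 0.0407), where 5.59% of all genes did. Its control mean was highest with G3-1. Npc1 (0.25) and Nsdhl (-0.28) came close with Bayertitan, each at an adjusted p of 0.0604. In 7 genes every overload library lay above every control (16.8% of all genes), and in 1, Nsdhl, below (14.2% of all).

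No listed gene passed with G3-1 overload, where 0.117% of all genes did; 2 (6.67%) were under an unadjusted p of 0.05, as were 12.2% of all genes, and DESeq2 called none of the list and 0.531% of all genes. The median over the 30 genes was 0.0024, with 15 of 30 above 0. Its sign depended on the samples and covariates: it was -0.05 with the epithelial covariate (7 of 30 above 0) and 0.11 without the libraries with Col3a1 (22 of 30). Insig1 lay wholly above its controls (this order held for 5.66% of all genes), and Mvk, Mvd and Nsdhl lay wholly below (9.04% of all).

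Whether overload effects differed among the 4 particles was tested for each gene. None of the 30 passed, where 1.72% of all genes did; 6 (20%) were under an unadjusted p of 0.05, as were 17.5% of all genes, and DESeq2 called none of the list and 4.41% of all genes. The smallest p was that of Nr1h3 (adjusted p = 0.156), followed by genes that include Soat1 (adjusted p = 0.193). Printex90 was then set against the mean of the 3 titanium dioxides. Again none passed, where 0.221% of all genes did. Under an unadjusted p of 0.05 were 8 (26.7%), against 8.80% of all genes, and DESeq2 called none of the list and 0.524% of all genes. The Soat1 effect was larger with Printex90 by 0.23 on the log2 scale (SE 0.080, adjusted p = 0.404), that of Acat2 by 0.31 (SE 0.11, adjusted p = 0.414). So the calls made with Printex90 and not with the other particles were not shown to differ between them.

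The non-overload condition gave no call with any single particle. Of all genes, 0.0621% passed with G1-1 and 0 with Printex90, G3-1 and Bayertitan. Under an unadjusted p of 0.05 were 7 listed genes with Printex90 (23.3%, against 4.33% of all genes), 4 with G1-1 (13.3%, against 6.38%), 0 with G3-1 (against 5.39%) and 4 with Bayertitan (13.3%, against 16.2%). DESeq2 called none of the list, and 0.0759 to 0.207% of all genes. The list's medians were 0.09 with Printex90, 0.02 with G1-1, 0.02 with G3-1 and 0.05 with Bayertitan, and without the libraries with Col3a1 they were 0.03, 0.09, -0.07 and 0.01 in that order of particles. Leaving out 1 library gave medians of 0.05 (without control replicate 1) to 0.12 with Printex90, -0.03 to 0.075 with G1-1, -0.02 to 0.05 with G3-1 and 0.05 to 0.08 with Bayertitan. With Printex90 non-overload, 9 genes lay wholly above the controls (this order held for 5.63% of all genes) and Scap wholly below (4.92% of all). With G1-1 non-overload, 1 lay above (7.07% of all) and 2 below (8.92%). With G3-1 non-overload, 2 lay above (5.50% of all) and 0 below (4.75%). With Bayertitan non-overload, 4 lay above (11.0% of all) and Nsdhl below (10.7%). The Printex90 genes in that order were Acat2, Hmgcs1, Mvk, Idi1, Fdps, Fdft1, Sqle, Msmo1 and Sc5d, all of them synthesis genes. Averaged over the 4 particles, Idi1 and Sqle rose, at 6.67% of the list where 2.75% of all genes passed, 1.55% higher and 1.20% lower. Idi1, an isomerase of the isoprenoid units, rose by 0.23 (SE 0.058, adjusted p = 0.0304) and Sqle by 0.16 (SE 0.042, adjusted p = 0.0401).

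In Printex90 cultures Idi1 had 49.5, 37.9 and 38.4 CPM with non-overload, against 33.7, 34.1 and 34.5 CPM in controls. In G1-1 cultures it had 36.5, 32.3 and 37.3 CPM, against 33.7, 27.7 and 26.9 CPM in controls. In Bayertitan cultures it had 34.6, 46.7 and 39.0 CPM, against 33.0, 30.9 and 29.6 CPM in controls. The non-overload libraries lay wholly above controls with Printex90 and Bayertitan and overlapped them with G1-1. In G3-1 cultures Idi1 had 33.7, 32.9 and 39.6 CPM, against 36.6, 33.5 and 35.8 CPM in controls, and the groups were mixed.

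Sqle had 63.2, 57.2 and 58.5 CPM with Printex90 non-overload, against 53.9, 50.3 and 55.2 CPM in controls. With G1-1 it had 56.6, 54.8 and 55.8 CPM, against 59.2, 49.9 and 46.2 CPM in controls. With G3-1 it had 57.7, 52.7 and 54.1 CPM, against 51.1, 50.5 and 47.7 CPM in controls. The groups were apart with Printex90 and G3-1 and overlapped with G1-1 and Bayertitan, where non-overload gave 47.0, 61.0 and 47.4 CPM, against 47.5, 42.0 and 43.4 CPM in controls. Leaving out 1 library ended the call of Idi1 in 9 of 24 fits, at 0.20 to 0.23: those without Bayertitan control 3 or non-overload 2, G1-1 control 2 or 3 or non-overload 3, G3-1 control 2 or non-overload 3, and Printex90 control 1 or non-overload 1. It ended that of Sqle in 17 of 24, at 0.12 to 0.16; the call stayed without Bayertitan control 1 or non-overload 1 or 3, G1-1 control 1, G3-1 non-overload 2, and Printex90 control 3 or non-overload 3. Both calls were lost with the epithelial covariate and without the libraries with Col3a1.

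Hmgcs1, the cytosolic HMG-CoA synthase that feeds the mevalonate route, shows how single libraries weigh. With Printex90 it had 55.0, 53.0 and 52.7 CPM in controls, 69.4, 59.2 and 57.5 CPM with non-overload and 58.7, 45.6 and 58.0 CPM with overload. With Bayertitan it had 47.1, 40.7 and 43.7 CPM in controls, 40.8, 71.8 and 48.1 CPM with non-overload and 49.0, 43.2 and 48.9 CPM with overload. Its highest levels were in Bayertitan non-overload replicate 2 and Printex90 non-overload replicate 1. The Printex90 non-overload libraries lay wholly above their controls, and those of overload on both sides of them. With G1-1 it had 44.4, 36.2 and 37.8 CPM in controls, 44.5, 38.3 and 42.2 CPM with non-overload and 44.1, 40.6 and 35.02 CPM with overload. With G3-1 it had 41.7, 42.1 and 47.8 CPM in controls, 45.3, 43.7 and 45.5 CPM with non-overload and 45.1, 54.3 and 47.4 CPM with overload. All 3 conditions overlapped with both of these particles. The mean overload effect was 0.07 (95% interval -0.07 to 0.21, adjusted p = 0.489) and the mean non-overload effect 0.15 (0.01 to 0.29, adjusted p = 0.189).

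The 18 synthesis genes were also averaged in each library, as log2 CPM centred on the mean over the 36 libraries, as a description. In Printex90 cultures this mean was -0.02, -0.01 and -0.01 in controls, 0.19, 0.08 and 0.11 with non-overload and 0.13, 0.08 and 0.16 with overload. Both exposed groups stood above the controls, and neither stood above the other. With G1-1 the mean was 0.01, -0.12 and -0.15 in controls and -0.04, -0.09 and -0.16 with overload. The 2 highest libraries of all, Printex90 non-overload replicate 1 at 0.19 and Bayertitan non-overload replicate 2 at 0.18, both held Col3a1 above 1 CPM; fibroblast markers summed to 3122 CPM in the second, the highest of the 36. The part of these cells in the synthesis levels was not tested beyond the fits without such libraries.

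**Figure D4:**
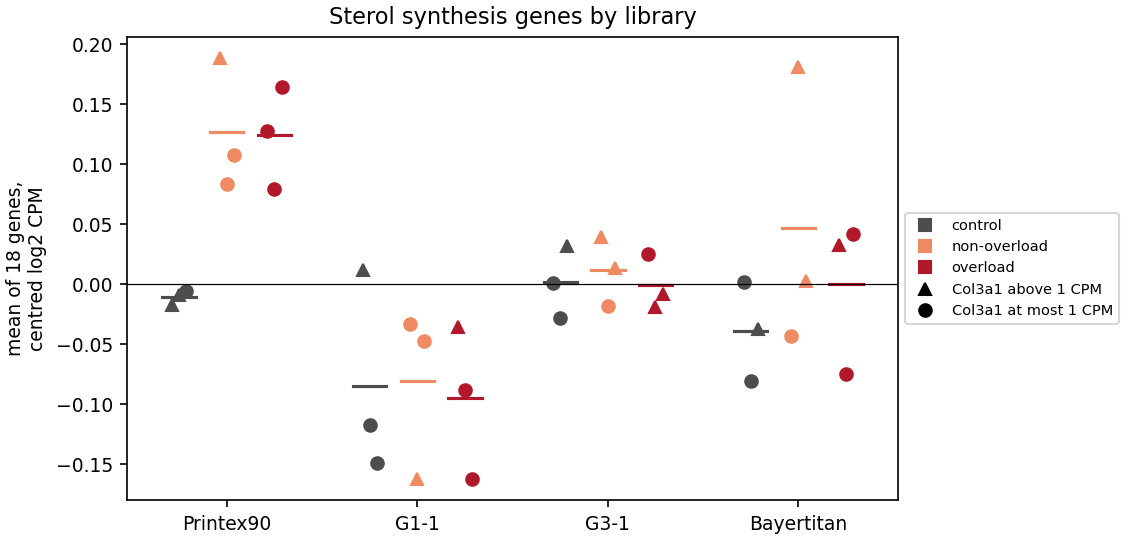
Mean of the 18 synthesis genes (centred log2 CPM) in each of the 36 libraries, by particle and condition (control, non-overload, overload from left to right); triangles have Col3a1 above 1 CPM and bars are group means. With Printex90 all 6 exposed libraries lie between 0.08 and 0.19, above the 3 controls, while G1-1 libraries lie mostly below 0 in every condition.

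Overload was set directly against non-overload over the 4 particles. None of the 30 genes passed, where 0.910% of all genes did; 4 (13.3%) were under an unadjusted p of 0.05, as were 11.4% of all genes. DESeq2 called Npc1 and Soat1, 6.67% of the list, and 1.92% of all genes. The median step over the 30 genes was -0.01, and 0.05 without the libraries with Col3a1. The 3 lysosomal and storage genes had a median step of 0.12, against -0.01 over all genes. Soat1 was 0.12 higher (SE 0.034, adjusted p = 0.098) and Npc1 0.14 higher (SE 0.044, adjusted p = 0.138). Sqle differed by 0.03 (95% interval -0.06 to 0.11), and Idi1 by -0.10 (-0.22 to 0.02).

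Signs shared by all 4 particles were counted as a description. Under overload 11 of 30 (36.7%) were above 0 with every particle, against 13.4% of all genes, and Nsdhl and Srebf2 (6.67%) were below 0 with every particle, against 13.8% of all. Under non-overload the shares were 36.7% and 6.67%, against 15.2% and 15.1% of all genes. The estimates of both loadings share the control libraries.

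None of the LXR and export genes changed past the test in any comparison with control. Abca1, which loads cholesterol onto apolipoprotein A-I, had 987, 1152 and 1137 CPM with Printex90 overload, against 812, 947 and 1041 CPM in controls. With Bayertitan overload it had 1070, 1355 and 1102 CPM, against 1114, 937 and 966 CPM in controls. Both pairs of groups overlapped, each through 1 library. G1-1 overload libraries had 908, 986 and 1079 CPM and their controls 1042, 1019 and 903 CPM. G3-1 overload libraries had 1156, 1031 and 955 CPM and their controls 1128, 949 and 1044 CPM. With these particles the groups were mixed. The mean overload effect on Abca1 was 0.12 (SE 0.059, adjusted p = 0.158), with an upper 95% bound of 0.24.

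Abcg1, which passes cholesterol to lipoprotein particles and is needed for lipid balance in alveolar macrophages, had 227, 287 and 255 CPM with Printex90 overload and 195, 227 and 231 CPM in controls. Only the first of these overload libraries lay within the control range. It had 206, 236 and 213 CPM with G1-1 overload and 234, 227 and 196 CPM in controls, and 265, 213 and 224 CPM with G3-1 overload and 253, 241 and 230.4 CPM in controls. Bayertitan overload libraries had 246, 290.3 and 266 CPM, against 258, 267 and 239 CPM in controls. The groups overlapped in all 3 of these titanium dioxides, and the mean effect was 0.06 (95% interval -0.03 to 0.16, adjusted p = 0.365).

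Mylip encodes IDOL, an LXR target that marks lipoprotein receptors for degradation. It had 12.9, 11.5 and 12.7 CPM with G1-1 overload, against 16.9, 15.7 and 15.4 CPM in controls, without overlap. That effect was -0.37 and just missed the threshold (adjusted p = 0.0512). With Printex90 it had 13.8, 16.3 and 12.8 CPM with overload and 14.1, 15.3 and 14.5 CPM in controls. With G3-1 it had 17.1, 17.6 and 15.8 CPM with overload and 22.2, 16.0 and 19.6 CPM in controls. The groups overlapped with both, and with Bayertitan too, at 14.7, 18.2 and 18.1 CPM with overload and 17.3, 15.5 and 17.9 CPM in controls. The mean effect was -0.15 (95% interval -0.26 to -0.03, adjusted p = 0.0551). Of the receptors themselves, Nr1h2, which encodes LXR beta, had a mean effect of 0.04, and Nr1h3, which encodes LXR alpha, had particle estimates of 0.26 for Printex90, -0.25 for G1-1, -0.02 for G3-1 and 0.34 for Bayertitan (adjusted p = 0.0779).

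**Figure D5:**
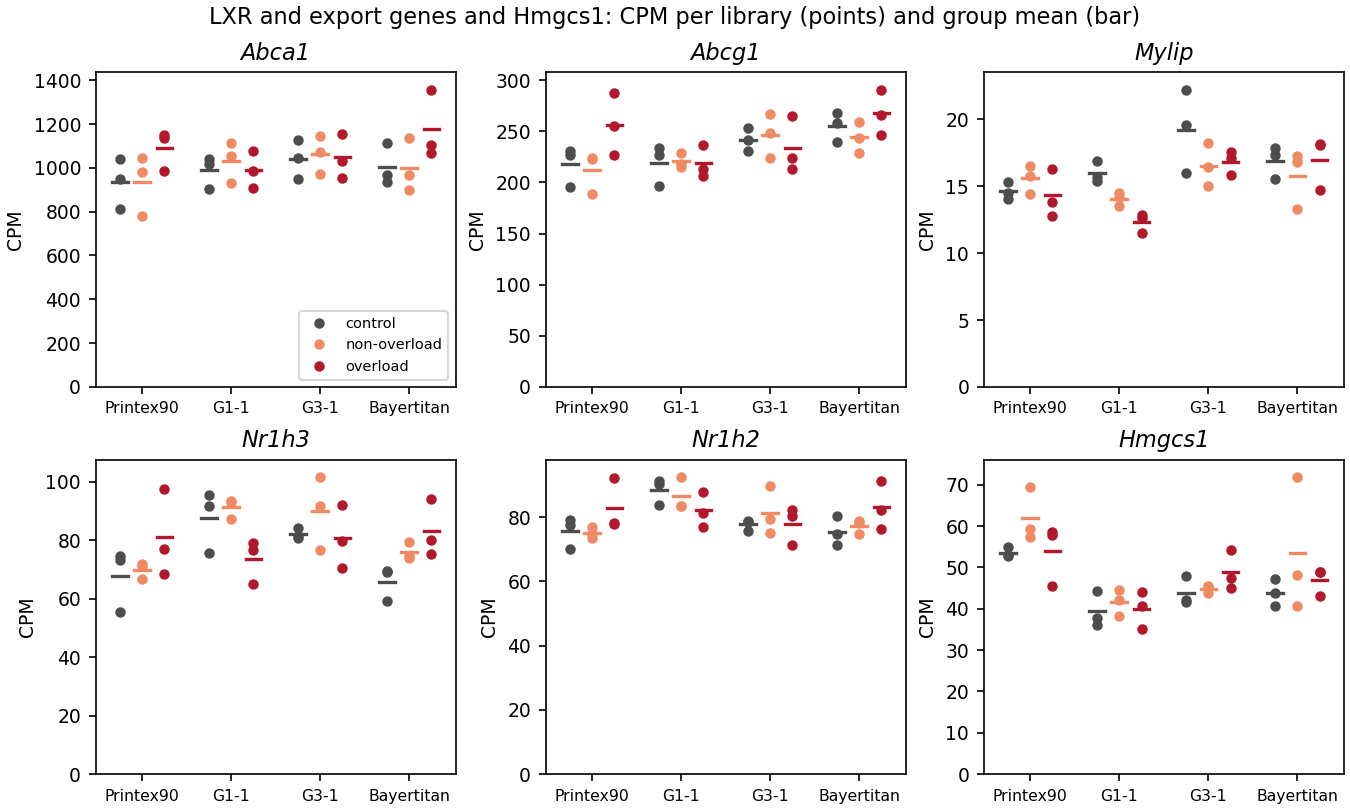
CPM of the 5 LXR and export genes and Hmgcs1 in each library (points) with group means (bars), by particle, with control, non-overload and overload from left to right; each axis starts at 0. Abca1 and Abcg1 overlap between overload and control with every particle, while Mylip is lower than its controls in all 3 G1-1 overload libraries.

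Neighbouring genes of the same pathways were read from 4 lists chosen by role. Of 10 tested genes of synthesis and SREBP control outside the 30, 4 rose and 1 fell with mean overload. Srebf1, the SREBP gene tied to fatty acid synthesis and an LXR target, rose by 0.31 (SE 0.039, adjusted p = 5.93e-06), Insig2 by 0.20 and the site-2 protease gene Mbtps2 by 0.13, while Mbtps1 fell by 0.12. Srebf1 averaged 100.2 ± 13.7 CPM with Printex90 overload and 72.9 ± 1.81 CPM in its controls (SD, n = 3 each), and 98.0 ± 1.25 CPM with G1-1 overload and 74.4 ± 4.88 CPM in its controls. It passed with Printex90, G1-1 and Bayertitan, and it was also higher in overload than in non-overload, by 0.22 (adjusted p = 0.00307). The estimate of Srebf2 had the opposite sign, at -0.07 without passing.

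Among 19 genes of uptake, lysosomal lipid and sterol transfer, 7 rose and 2 fell. Scarb1, a receptor for high-density lipoprotein, rose by 0.40 (adjusted p = 0.000314), and averaged 373 ± 80.0 CPM with Printex90 overload and 222 ± 35.5 CPM in its controls (SD, n = 3 each). The lipid transfer genes Osbpl8, Gramd1b and Osbpl11 rose by 0.37, 0.29 and 0.13, whereas Osbpl5 and Osbpl10 fell by 0.40 and 0.54. Of 14 genes of oxysterols, storage and export, 3 rose and 1 fell. Plin2, the coat protein of lipid droplets, rose by 0.32 (adjusted p = 0.000299), the second esterifying enzyme gene Soat2 by 0.79 (adjusted p = 0.00376) and Ncor1 by 0.12, and Abca7 fell by 0.16. Soat2 was close to the detection limit, at 0.898 ± 0.166 CPM with Printex90 overload and 0.292 ± 0.120 CPM in its controls (SD, n = 3 each).

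SREBP1 fatty acid genes split: of 9 tested, 2 rose and 2 fell. The desaturase genes Scd and Scd2 rose by 0.76 (adjusted p = 0.00216) and 0.46 (adjusted p = 1.01e-08), whereas Fasn, the fatty acid synthase gene, and Acly fell by 0.20 and 0.08. The median over the 9 was -0.02. Scd2 was also higher in overload than in non-overload, by 0.24 (adjusted p = 0.00124), and with mean non-overload it passed along with Osbpl8, Plin2 and Abca7, the last of these lower. The lists' shares of calls under mean overload, 28.6 to 50%, stand beside the 24.0% of all genes, and the part of the lower epithelial markers in these values was not tested.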

How the data were processed

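The authors deposited a table of estimated counts per gene for 36 libraries, not scaled to library size; 47.7% of its values are not whole. The submitters' processing notes name Salmon, FastQC, MultiQC and the build Rnor_6.0; versions and annotation are not given in the sources used here. Library input was 150 ng of RNA, depleted of ribosomal RNA, per the labels' protocols. Such estimates share out reads that match several near-identical genes, so genes with close copies are less certain.

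Counts were rounded, filtered with filterByExpr by group (14498 genes) and normalised by TMM (factors 0.934 to 1.07). CPM values use these library sizes; marker CPM use column totals. All 36 libraries entered 1 quasi-likelihood fit in edgeR 4.0.16 (R 4.3.3, limma 3.58.1) with 12 group means and 24 residual degrees of freedom. P-values were Benjamini-Hochberg adjusted over all tested genes, with a threshold of 0.05. Every adjusted p in the text comes from this test unless another tool is named. Intervals and SE are from the fit. The scripts were tested on simulated data. The effects planted there were larger than the mean effects called for the listed genes, so that test does not show how well effects of this size are recovered.

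The genes, lists and rules were chosen with earlier results of these data known. Values in every library of both groups are given for up to 4 called genes per single-particle comparison, smallest adjusted p first. They are also given for Hmgcs1, Abca1, Abcg1 and Mylip with overload and control of every particle, and for Insig1 with G1-1 only. Of the mean overload calls Nsdhl is given in every library, and Sc5d, Soat1, Npc1 and the others by range or estimate. Further values of Nsdhl and Sqle were added after they were seen. Pathway genes are 2 to 4 of the smallest p per list; some pathway genes are not reported here. No pair of libraries within a group was close to a duplicate (chi-square per gene 7.05 to 54.8). Alternatives were DESeq2 1.42.0, RLE size factors, no filter, the particle's libraries alone, replicate blocks, an epithelial covariate, leaving out libraries with Col3a1 above 1 CPM, and leaving out each library in turn. Promoters came from RefSeq's GRCr8 table; coordinates of Rnor_6.0 were not used.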

Additional observations from a re-analysis of the deposited data

How the results depend on the processing

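None of the 19 calls of single genes changed sign in the alternatives run: of 122 refits, 92 kept the call and 30 lost it, and of 312 fits that left out 1 library, 256 kept it and 56 lost it. The mean overload count of 9 genes was 7 to 12 when 1 library was left out and 5 without the libraries with Col3a1 above 1 CPM. Other counts rest on fewer genes. DESeq2 called 2 genes with G1-1 overload, 3 with Bayertitan overload, 2 for overload against non-overload and 3 among controls. RLE size factors gave 0 among controls. Without a filter on low counts the number was 0 with Bayertitan overload and 0 among controls. Fitting the particle's libraries alone gave 1 with Printex90 overload, 2 with G1-1 overload and 0 with Bayertitan overload. With the epithelial covariate the counts were 3 with Printex90 overload, 4 with G1-1 overload, 0 with Bayertitan overload, 0 for mean non-overload and 0 among controls. Without the libraries with Col3a1 they were 0 with Printex90 overload, 0 with G1-1 overload, 0 with Bayertitan overload, 0 for mean non-overload and 0 among controls; that choice leaves fewer samples, and single libraries left in a group were assumed to vary like the others. Estimates of genes that were not called did change sign, as the counts above 0 show: with G3-1 overload 15 of 30 were above 0, 7 with the epithelial covariate and 22 without the libraries with Col3a1, and with Bayertitan overload 22 and, with the covariate, 15. The cause of the other shifts was not tested.

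Leaving out 1 library gave 1 to 9 calls with Printex90 overload, 0 to 1 with G1-1 overload, 0 to 2 with Bayertitan overload, 0 to 4 for mean non-overload, 0 to 1 for overload against non-overload and 0 to 3 among controls. Same-numbered libraries were alike in some pairs and not in others. Deviations correlated above 0.1 in 6 of 9 pairs with Printex90, 2 of 9 with G1-1, 5 of 9 with G3-1 and 3 of 9 with Bayertitan (r from -0.631 to 0.668). Whether such libraries belong together is therefore not settled, and the main fit treats them as unpaired. A replicate block within particle gave 3 calls with G1-1 overload, 3 with Bayertitan overload and 1 for overload against non-overload. Its count of 8 among controls is another quantity: that fit compares control levels at replicate 1, not the means of 3 libraries.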
